A study of Mus musculus with 16 samples.

Results

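The muscle miRNAs were followed in RNA from plasma extracellular vesicles (pEVs) of a tauopathy mouse model. The 7 are mmu-miR-1a-3p, mmu-miR-133a-3p, mmu-miR-133b-3p, mmu-miR-206-3p, mmu-miR-208a-3p, mmu-miR-208b-3p and mmu-miR-499-5p, chosen by name because they are the mature miRNAs known to be made mainly in skeletal or cardiac muscle. All 7 were listed, among 817 mature miRNAs and 15159 ncRNAs in all. The pEVs came from 200 µL of plasma of 8 PS19 mice and 8 wild-type (WT) mice at about 9.6 months of age, with 1 small RNA library per mouse. PS19 mice are heterozygous for the Prnp-MAPT*P301S transgene, a human tau with the P301S mutation driven by the murine prion promoter, and their WT littermates lack it. Both are on a C57BL/6 and C3H hybrid background, and the genotypes are as labelled, since the transcript of the transgene is not among the ncRNAs measured. Blood was drawn from the heart under anaesthesia and the vesicles were precipitated with a kit, a step that leaves other plasma material in the preparation. The first letter of the library name is G for each of the 8 PS19 libraries and for 2 of the 8 WT libraries, and F or A for the other 6 WT libraries. What that letter stands for is not given in the sources used here.

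MyomiRs, as these miRNAs are called, act in muscle fibres, where they are loaded into Argonaute and lower the output of mRNAs that pair with their seed. miR-1 and miR-133 are made together from shared transcripts in both skeletal and cardiac muscle, miR-206 and miR-133b from a shared transcript in skeletal muscle, and miR-208a, miR-208b and miR-499 from introns of myosin heavy chain genes. miR-208a is the classic heart miRNA, and miR-206 is the skeletal muscle member that is raised by denervation and during fibre regeneration. Their release into blood is widely used as a sign of muscle injury.

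The sequences below show which of the 5 members printed can be told apart by their reads. They also show which share a seed, the part that selects targets. Of the 7, 5 matched an entry of the RefSeq miRNA table (GRCm38.p6), and bases 2 to 8, the seed, are in capitals. miR-1a-3p and miR-133a-3p did not, so whether reads can be split between miR-1a-3p and miR-206-3p was not checked.
mmu-miR-206-3p: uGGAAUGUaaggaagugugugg
mmu-miR-133b-3p: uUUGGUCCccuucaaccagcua
mmu-miR-208a-3p: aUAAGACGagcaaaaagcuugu
mmu-miR-208b-3p: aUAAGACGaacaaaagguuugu
mmu-miR-499-5p: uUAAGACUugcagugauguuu

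miR-208a-3p and miR-208b-3p were identical at 19 of 22 positions and at all 7 seed bases, and differed by G10A, A16G and C18U, with positions counted from the 5′ end and the base of miR-208a-3p first. miR-499-5p shared 6 of the 7 seed bases with them, with G8U as the difference from miR-208a-3p inside the seed. miR-206-3p shared 1 of 7 seed bases with miR-133b-3p, although their genes are neighbours. It is known that miR-1 carries the seed of miR-206, and miR-133a that of miR-133b. miR-133a-3p and miR-133b-3p are near-identical, so their reads may have been split between the 2 entries and each of their values is uncertain.

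On GRCm38, Mir206 lies at chr1:20679010-20679082 and Mir133b at chr1:20682769-20682887, both on the plus strand in exons of the noncoding gene Gm28653, with 3686 bases between them. Mir499 lies at chr2:155622880-155622958 in an intron of Myh7b, a slow-type myosin heavy chain gene. Mir1a-1 and Mir133a-2 lie on the plus strand of chromosome 2, with 9254 bases between them. Mir208a (chr14:54949060-54949142) and Mir208b (chr14:54975700-54975776) lie on the minus strand in introns of Myh6 and Myh7, the genes of the fast and slow cardiac myosins.

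Depth limited the rarer members. The libraries held 36220722 to 117583663 assigned reads, but only 51467 to 1224303 mature miRNA reads in PS19 and 335410 to 2681285 in WT. PS19 replicates 4 and 1, with 51467 and 69476 mature miRNA reads, were the lowest. Mature miRNA reads were lower in PS19 by 1.31 on the log2 scale, which did not exceed the spread over mice (exact permutation test, two-sided, p = 0.0954). The values below are on 2 scales. The normalized count is the value the authors deposited, in which the DESeq2 size factor of each library divides its reads, and the share is the number of reads per 1000000 mature miRNA reads of that library (RPM). A floor of 3 reads was used, which came to 1.12 to 58.3 RPM depending on the library. The mature forms are 21 or 22 bases long where a sequence is shown, so levels were compared between members without a correction for length. Intervals and floors cover counting error only, because PCR copies are not independent molecules.

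The muscle miRNAs in these pEVs were almost entirely miR-1a-3p and miR-206-3p, which together made up 98.5% to 99.9% of the member reads in every library. The other 5 members were rare. In WT, the order by mean share was miR-1a-3p at 21762 ± 29069 RPM (SD, n = 8), miR-206-3p at 2175 ± 769, miR-499-5p at 53.8 ± 111, miR-133a-3p at 51.7 ± 112, miR-133b-3p at 4.001 ± 8.14, miR-208a-3p at 3.68 ± 7.76 and miR-208b-3p at 1.13 ± 2.32. Of the neighbours in this order, only miR-206-3p and the member below it did not overlap in their ranges over the libraries. WT replicate 4 carried several of these means, and without it they were 12407 RPM for miR-1a-3p, 15.2 for miR-499-5p, 12.7 for miR-133a-3p, 1.17 for miR-133b-3p and 1.12 for miR-208a-3p, with miR-208b-3p, at 1.29, then above the last 2. Without WT replicate 5, its highest library, the mean of miR-208b-3p fell to 0.373 RPM. By the WT medians, miR-133a-3p, at 7.49 RPM, stood just above miR-499-5p, at 7.08. In PS19, miR-1a-3p stood at 32173 ± 34031 RPM (SD, n = 8), and miR-206-3p, at 24983 ± 25543, came close to it. The lower members of PS19 were miR-133a-3p at 83.8 ± 62.6, miR-133b-3p at 19.9 ± 23.8, miR-499-5p at 15.5 ± 20.9, miR-208a-3p at 3.49 ± 6.47 and miR-208b-3p at 2.33 ± 6.60, and again only miR-206-3p and the next member were apart. Without its highest PS19 library, the mean fell to 12.9 RPM for miR-133b-3p (replicate 3), 9.99 for miR-499-5p (replicate 7), 1.93 for miR-208a-3p (replicate 1) and 0 for miR-208b-3p (replicate 7). Among the 817 mature miRNAs, miR-206-3p ranked 35 by mean share in WT and 9 in PS19, whereas miR-1a-3p ranked 10 and 7. Together, the 7 members took 0.603% to 15.6% of mature miRNA reads in PS19 (median 3.80%) and 0.512% to 9.03% in WT (median 1.12%). Of all assigned reads they took a median of 0.0174% in PS19 and 0.0119% in WT. The log2 difference of their summed share was 1.27 on mature miRNA reads but 0.11 on all assigned reads. Among the libraries named with G it was 0.69 on mature miRNA reads.

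**Figure D1:**
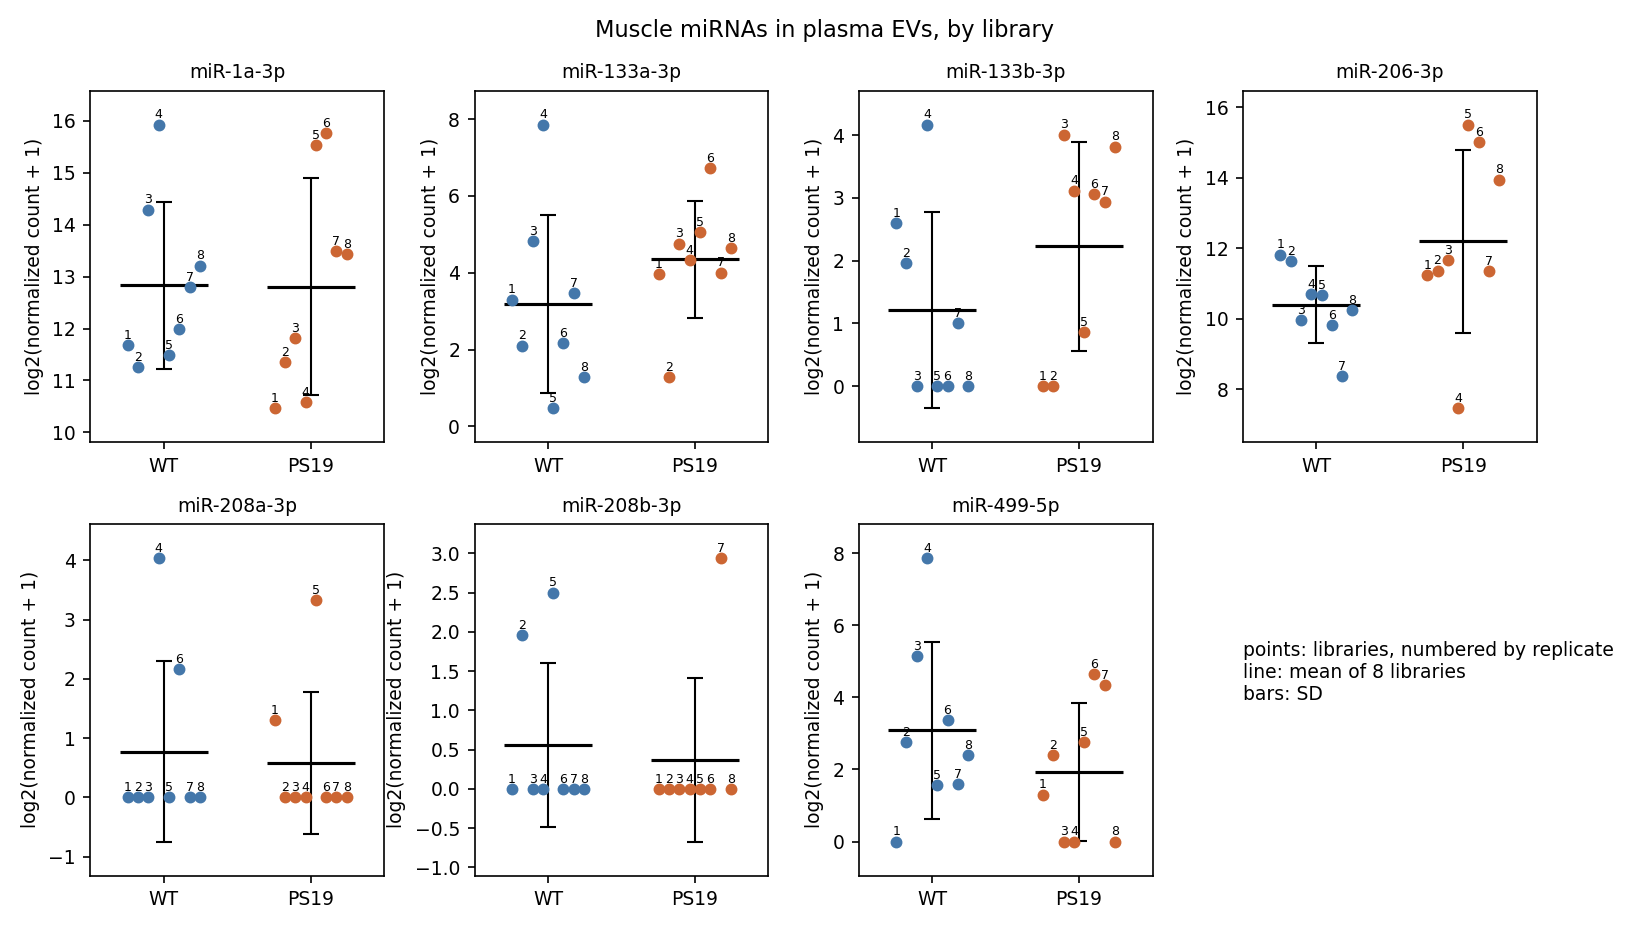
Normalized counts of the 7 muscle miRNAs on the log2(normalized count + 1) scale, with 1 point per library numbered by replicate, the mean of 8 libraries as a line and the SD as bars, and an axis of its own for each panel. miR-1a-3p and miR-206-3p lie far above the other members, miR-206-3p is spread over 176 to 46765 normalized counts in PS19 and 331 to 3630 in WT, and the myosin intron members reach 0 in many libraries.

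miR-206-3p, the skeletal muscle member, was the single member with a raw limma p under 0.05, and it was higher in PS19. Its normalized count ran from 176 to 46765 in PS19 with a median of 2943, and from 331 to 3630 in WT with a median of 1423. PS19 replicates 5, 6 and 8, at 46765, 32922 and 15840, were above every WT library, PS19 replicate 4 was below every WT library, and the other 4 PS19 libraries, at 2433 to 3239, lay within the WT range. The mean of the PS19 libraries was 13329 ± 17446 (SD, n = 8), with 43.9% of their sum in replicate 5, and that of the WT libraries 1696 ± 1144 (SD, n = 8). On the log2(normalized count + 1) scale the difference, PS19 minus WT, was 1.79 (SE 0.81, 95% interval 0.13 to 3.45, limma raw p = 0.0361, adjusted p = 0.829, exact permutation p = 0.0903, two-sided). Thus 1 of the 7 members was called, against a background of 4.85% of all 15159 ncRNAs called, 2.72% called as higher and 2.13% as lower. Of the mature miRNAs alone, 0.734% were called as higher. After adjustment over all ncRNAs, limma called 0 of the 735 that passed the raw threshold. By exact permutation 3.96% of all ncRNAs had a p under 0.05, miR-206-3p not among them, and 0% had groups that did not overlap. A model on the recovered reads gave miR-206-3p a log2 fold change of 2.97 with DESeq2 (SE 0.75, adjusted p = 0.0112) and 2.97 with edgeR (adjusted p = 0.0012), where 2.47% and 2.1% of the ncRNAs tested passed an adjusted p of 0.05, and 5.42% passed the raw threshold with DESeq2. The fold of PS19 over WT in normalized counts of miR-206-3p was 7.86 by the means and 2.07 by the medians. No fit with DESeq2 or edgeR was made with a library left out. In pEV RNA, a higher number of vesicles that carry a miRNA and more of it per vesicle cannot be told apart.

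As a share of mature miRNA reads, miR-206-3p was above the WT range in more of the PS19 mice. The share ran from 894 to 69653 RPM in PS19 (median 18619) and from 495 to 2922 in WT (median 2280). The WT libraries were close together, 7 of the 8 lying between 1922 and 2922, whereas the PS19 libraries spanned a wide range. Of the 8 PS19 libraries, 7 were above every WT library, the exception being PS19 replicate 4, at 894 RPM from 46 reads (95% exact binomial interval 654 to 1192). The lowest of the 7, PS19 replicate 2, at 3022 RPM (interval 2926 to 3121), was not apart from WT replicate 1, at 2922 (interval 2816 to 3030), by more than counting error. Such a pattern of at least 7 of 8 was seen for 0.122% of the 817 mature miRNAs, that is for miR-206-3p itself, and this count was chosen after the values had been seen. With libraries scaled to mature miRNA totals, the log2 difference of miR-206-3p was 2.68 (SE 0.72, limma raw p = 0.00122, adjusted p = 0.655, exact permutation p = 0.00559, two-sided). Under this scaling 7.53% of all ncRNAs were called and 6.83% were called as higher, and 6.37% had an exact permutation p under 0.05. The part that the fewer mature miRNA reads of PS19 have in this value was not tested. Without PS19 replicates 1 and 4, an omission chosen after the data were seen, the difference of the normalized counts was 2.73 (SE 0.66), past the raw limma threshold.

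**Figure D2:**
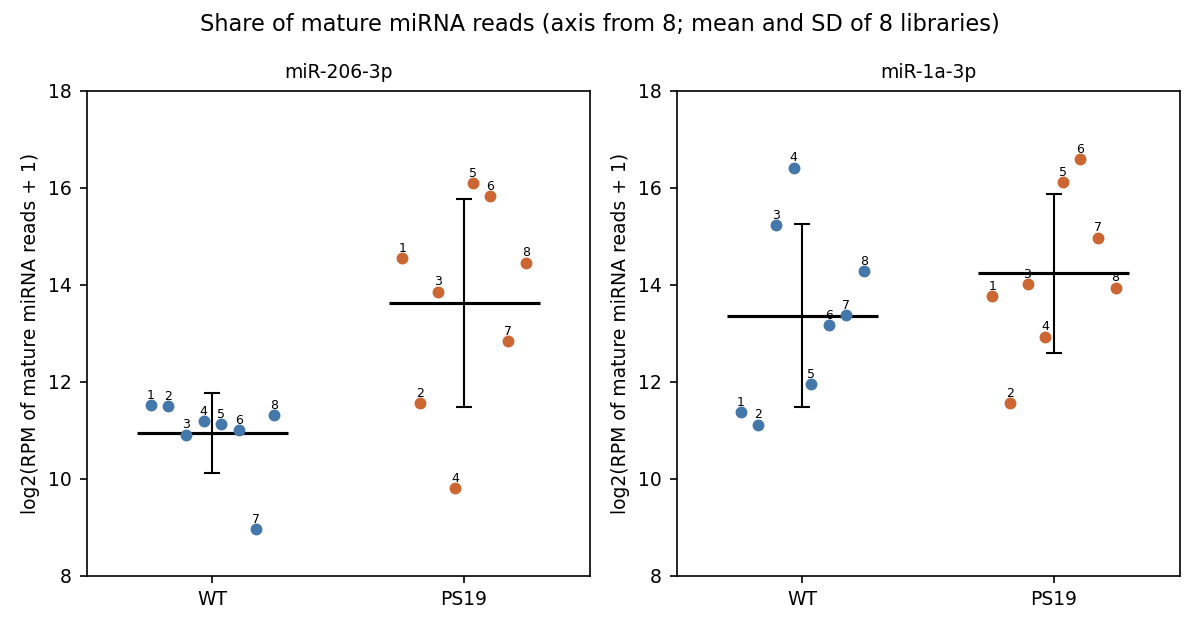
Share of miR-206-3p and miR-1a-3p in mature miRNA reads on a log2(RPM + 1) scale, with 1 point per library numbered by replicate, with the mean of 8 libraries and the SD. The axis starts at 8. For miR-206-3p, all PS19 libraries but replicate 4 are above the WT libraries, the highest of which is at 2922 RPM, whereas for miR-1a-3p the groups overlap over most of their range.

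The call on miR-206-3p depended on the libraries and on the scaling. Leaving out each library in turn gave log2 differences of 1.32 to 2.46, and the raw limma p passed 0.05 in 10 of the 16 fits. The call was lost without PS19 replicate 5 (1.32), 6 (1.39) or 8 (1.54) and without WT replicate 3 (1.73), 6 (1.71) or 7 (1.499). With libraries scaled to total assigned reads, 0 of the 7 members were called (2.9% of all ncRNAs) and the difference of miR-206-3p was 1.52 (SE 1.01, exact permutation p = 0.269). The median difference of all mature miRNAs was -0.25 with the authors' factors, -0.33 with totals and 0.00 with mature miRNA totals, and miR-206-3p lay above it by 2.04, 1.85 and 2.68, respectively. For the 219 mature miRNAs that averaged 10 normalized counts or more, the median was -0.64 with the authors' factors and 0.20 with mature miRNA totals. Among the libraries named with G, 8 PS19 and 2 WT, the log2 difference was 1.03 (SE 1.35), short of the raw limma threshold, which 4.62% of the ncRNAs passed. The WT libraries named with G had miR-206-3p shares of 2894 and 2320 RPM, against 495 to 2922 RPM for the 4 named with F and 1922 to 2549 RPM for the 2 named with A, and 7 of the 8 PS19 libraries were above each of these. Since WT is thinly represented under G, letter and genotype are largely confounded.

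miR-1a-3p, the most abundant member, showed no genotype difference larger than the spread over mice. Its normalized count ran from 1415 to 55707 in PS19 (median 7337) and from 2444 to 62253 in WT (median 5594). The highest values were in WT replicate 4 and in PS19 replicates 6 and 5, so that both genotypes held libraries with high miR-1a-3p. The log2 difference was -0.02 with the authors' factors (SE 0.77, 95% interval -1.62 to 1.57, limma raw p = 0.975, exact permutation p = 0.979), and it turned to 0.87 (SE 0.78, exact permutation p = 0.336) with mature miRNA totals. The interval leaves room for a change of more than 1 on the log2 scale in either direction.

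Since miR-1a-3p and miR-206-3p come from the same library, their ratio does not depend on the scaling. The ratio of miR-206-3p to miR-1a-3p ran from 0.115 to 1.72 in PS19 and from 0.0266 to 1.31 in WT. miR-206-3p had more reads than miR-1a-3p in 3 PS19 libraries (replicates 1, 2 and 8) and 2 WT libraries (replicates 1 and 2), and fewer by over 10-fold in WT replicates 3, 4 and 7 alone. The mean log2 ratio of the PS19 libraries was -0.61 ± 1.35 (SD, n = 8) and that of the WT libraries -2.42 ± 2.17 (SD, n = 8), a difference of 1.81 (exact permutation p = 0.0673, two-sided, adjusted p = 0.197 over 3 ratios). It had the direction of the share of miR-206-3p but did not exceed the spread over mice. The ratio of miR-1a-3p to miR-133a-3p differed by -1.19 (exact permutation p = 0.131, adjusted p = 0.197) and that of miR-206-3p to miR-133a-3p by 0.63 (exact permutation p = 0.615, adjusted p = 0.615).

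**Figure D3:**
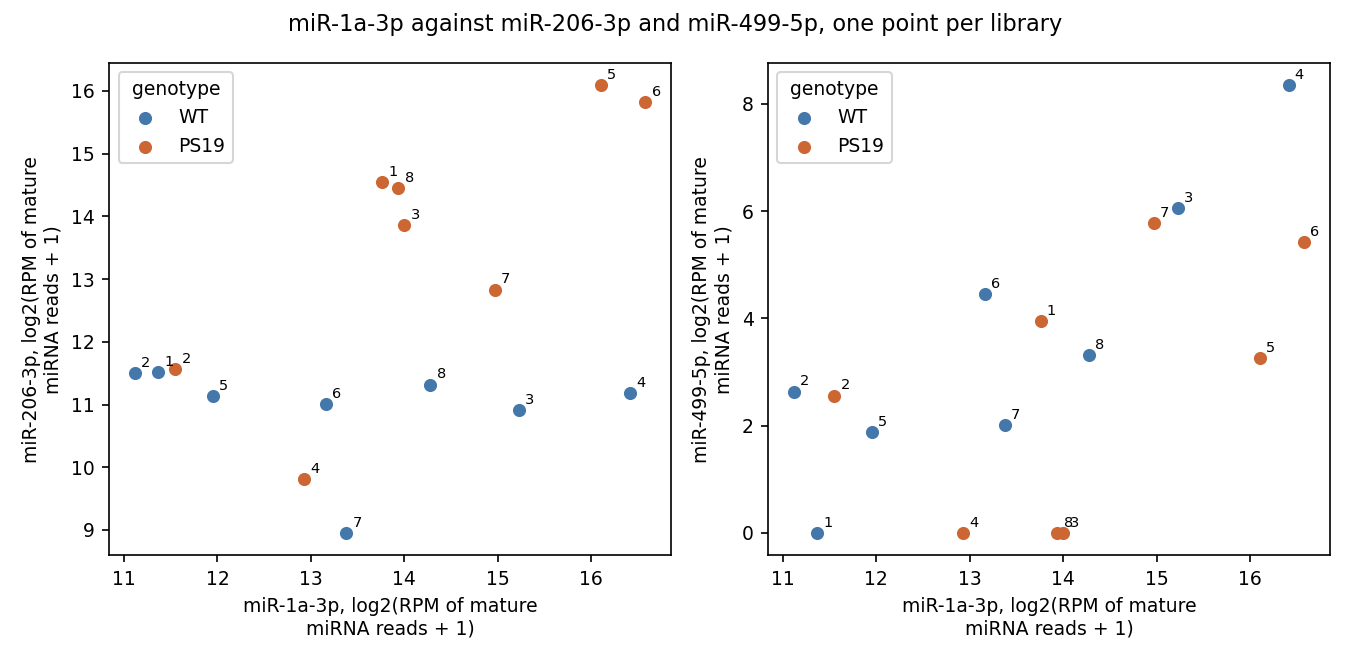
Share of miR-1a-3p against that of miR-206-3p (left) and miR-499-5p (right), each as log2(RPM + 1), with 1 point per library numbered by replicate and coloured by genotype. PS19 replicates 5 and 6 are high in both miR-1a-3p and miR-206-3p, whereas WT replicate 4 is high in miR-1a-3p and miR-499-5p with a miR-206-3p share of 2320 RPM.

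The 3 libraries richest in miR-1a-3p are given member by member. WT replicate 4, with 62253 normalized counts of miR-1a-3p, also had the highest miR-133a-3p and miR-499-5p of all libraries, at 232 normalized counts and 150 reads each, and 10 reads of miR-208a-3p. Its miR-206-3p, at 1655, was within the range of the other WT libraries. PS19 replicate 5, with 47353 normalized counts of miR-1a-3p, had 46765 of miR-206-3p with 39 reads of miR-133a-3p, 7 of miR-499-5p and 11 of miR-208a-3p. These were the most miR-208a-3p reads of any library, but at 9.08 normalized counts they stood below the 15.4 of WT replicate 4. PS19 replicate 6 had 55707 and 32922, with 26 reads of miR-499-5p, none of miR-208a-3p and 114 of miR-133a-3p, which at 105 normalized counts was second to WT replicate 4. Thus the 3 were alike in their high miR-1a-3p, while high miR-206-3p was seen in the 2 from PS19.

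Across the 16 libraries, miR-1a-3p went with miR-133a-3p and with miR-499-5p. Of the 6 pairs among the 4 members with at least 160 reads in all, miR-1a-3p and miR-499-5p had r = 0.69 (permutation p = 0.00264, adjusted p = 0.0151) and rho = 0.65 (permutation p = 0.00771, adjusted p = 0.0250) on the log2(normalized count + 1) scale. Without the 2 libraries farthest from the median of miR-1a-3p, PS19 replicate 6 and WT replicate 4, r was 0.48 (permutation p = 0.0811), so the relation rests in part on those samples. For miR-1a-3p and miR-133a-3p, r was 0.67 (permutation p = 0.00504, adjusted p = 0.0151) and rho 0.64 (permutation p = 0.00835, adjusted p = 0.0250), and r was 0.39 without the same 2 libraries (permutation p = 0.164). On the share scale r was 0.74 for miR-133a-3p and 0.63 for miR-499-5p, and 0.67 and 0.64 without the 2 libraries farthest from the median there, PS19 replicate 6 and WT replicate 2. That omission keeps WT replicate 4, and without WT replicate 4 alone they were 0.69 and 0.54 on the share scale and 0.56 and 0.58 on the scale of normalized counts. Within the 10 libraries named with G, r was 0.75 for miR-133a-3p and 0.69 for miR-499-5p. For miR-1a-3p and miR-206-3p, r was 0.50 (permutation p = 0.0468, adjusted p = 0.0936) and rho 0.25 (permutation p = 0.343, adjusted p = 0.411) over all libraries, 0.85 within PS19 and -0.26 within WT. The difference between those 2 values was not tested. In the libraries named with G r was 0.63. The other 3 pairs had permutation p-values of 0.0906 to 0.778.

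miR-133a-3p, which is made from the transcripts of miR-1 and is known to restrain growth of the heart muscle, had 1 to 150 reads per library. Its normalized count ran from 1.43 to 105 in PS19 (median 21.6) and from 0.389 to 232 in WT (median 6.18). Of the 8 PS19 libraries, 7 were above the WT median, whereas WT replicate 4 alone was above every PS19 library. The log2 difference was 1.16 (SE 0.82, limma raw p = 0.168, exact permutation p = 0.258), and leaving out 1 library gave 0.77 (without WT replicate 5) to 1.83 (without WT replicate 4), the latter past the raw limma threshold. With edgeR it turned to -0.30 (adjusted p = 0.892), and with DESeq2 it was 1.82 (adjusted p = 0.198). DESeq2 was run with its default replacement of outlying counts, so the 2 models may not have used the same count of WT replicate 4. With mature miRNA totals it was 2.03 (SE 0.93, limma raw p = 0.0409, exact permutation p = 0.0768), and among the libraries named with G -0.64. The mean normalized counts, 29.7 ± 31.7 for PS19 and 35.8 ± 79.6 for WT (SD, n = 8 each), stood in the other order than the means on the log2 scale. WT replicate 4 held 80.8% of the WT sum.

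miR-133b-3p, the partner of miR-206 on chromosome 1, had at most 18 reads in a library and no read in 2 PS19 and 4 WT libraries. Its log2 difference was 1.01 (SE 0.74, limma raw p = 0.182, exact permutation p = 0.224), and -0.84 among the libraries named with G. It was 1.67 (SE 0.87, limma raw p = 0.0693) with mature miRNA totals and 1.83 (SE 1.31) with a pseudocount of 0.1. Although both genes lie in exons of Gm28653, miR-206-3p had 125154 reads in PS19 and 19676 in WT, against 48 and 23 for miR-133b-3p.

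Of the members from myosin introns, miR-499-5p was the most abundant, with 63 reads in PS19 and 225 in WT, of which 150 were in WT replicate 4. The normalized count ran from 0 to 23.9 in PS19 (median 2.88) and from 0 to 232 in WT (median 5.01). The log2 difference was -1.15 (SE 0.90, limma raw p = 0.213, exact permutation p = 0.320), opposite in sign to that of miR-206-3p and not larger than the spread over mice. Without WT replicate 4 it was -0.47. Among the libraries named with G, which include WT replicate 4, it was -3.38, past the raw limma threshold, where 3.62% of all ncRNAs and 10.1% of mature miRNAs were called as lower. In those libraries 21.6% of all calls were higher, against 56.1% over the 16 libraries. With edgeR it was -2.32 (adjusted p = 0.0736), past the raw threshold that 15.1% of all ncRNAs passed, whereas with DESeq2 it was -0.14 (SE 0.98, adjusted p = 0.985). Here too the default of DESeq2 may have replaced the count of WT replicate 4.

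miR-208a-3p, from the intron of the cardiac myosin gene Myh6, had 12 reads in PS19 and 16 in WT. They were 11 reads in PS19 replicate 5, 1 in PS19 replicate 1, 10 in WT replicate 4 and 6 in WT replicate 6, and the other 12 libraries had 0 reads. miR-208b-3p had 8 reads in PS19 replicate 7, 7 in WT replicate 2 and 12 in WT replicate 5. In a library with 0 reads of miR-208a-3p, the floor of 3 reads corresponds to 1.12 to 58.3 RPM, and the two-sided 95% exact binomial interval of such a share reaches up to 1.38 to 71.7 RPM. With reads in so few libraries, a genotype difference in either of them could not be judged. Which size of difference could be detected was not tested. Their fitted differences, which rest on these few reads, are not read as changes.

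**Figure D4:**
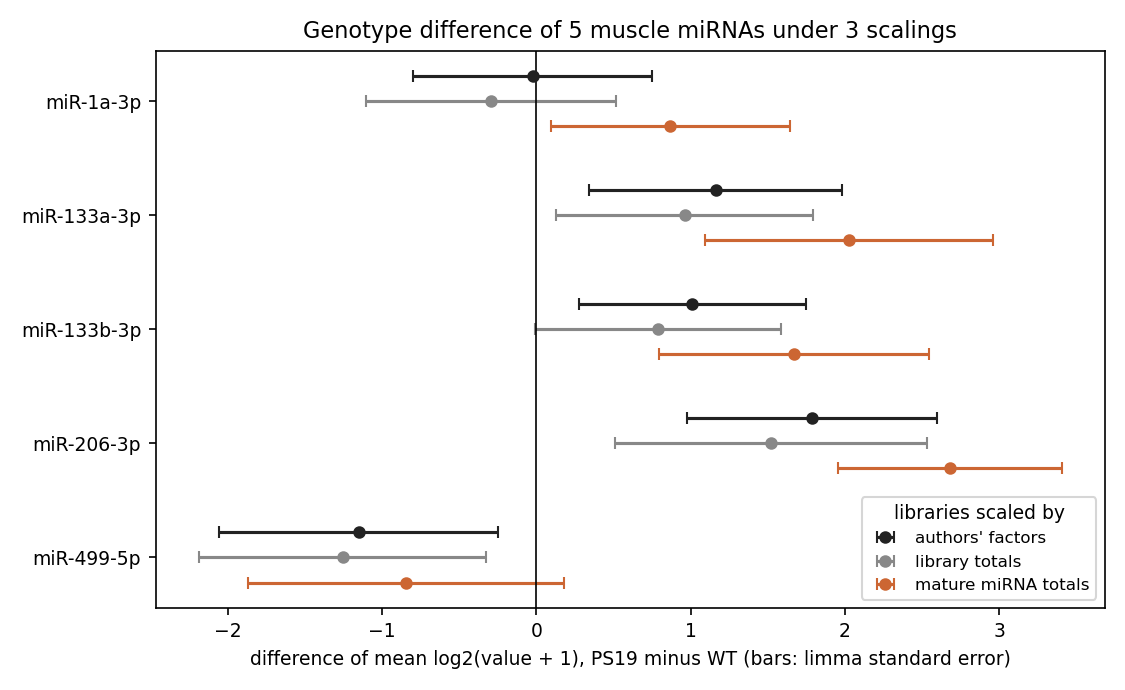
Genotype difference of the 5 muscle miRNAs with the most reads, PS19 minus WT, as the difference of mean log2(value + 1) with the limma standard error as bars, for libraries scaled by the authors' factors, library totals or mature miRNA totals. The point of miR-206-3p is above 0 under all 3 scalings (1.79, 1.52 and 2.68), that of miR-499-5p is below 0, and that of miR-1a-3p changes side.

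Other products of the same genes were checked from a list of 20 entries of opposite arms, paralogs and hairpins, of which 7 were listed. The entry of the miR-206 hairpin, which holds reads of its own beside those of the mature entry, was the one called of the 7, and it was higher in PS19, where 4.85% of all ncRNAs were called and 2.72% as higher. Its RefSeq sequence is shown because it carries the same finding, with the 2 mature arms in capitals, the 5p arm first.
mmu-mir-206: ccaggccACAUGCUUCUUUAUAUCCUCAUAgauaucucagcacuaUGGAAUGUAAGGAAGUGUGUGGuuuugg

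The mmu-mir-206 entry had 192 reads in PS19 and 19 in WT. PS19 replicates 5, 8 and 6, with 104, 39 and 32 reads, were the highest, the same libraries that led for the mature form, and PS19 replicate 4 and WT replicates 2, 3 and 6 had 0 reads. The log2 difference was 1.95 (SE 0.77, limma raw p = 0.0170, adjusted p = 0.829, exact permutation p = 0.0412, two-sided). This is a second entry for the same gene in the same libraries and no independent support. The hairpins mmu-mir-133a-1 and mmu-mir-133a-2 had 207 and 201 reads in PS19 and 249 reads each in WT, were equal in 15 of the 16 libraries, and had log2 differences of 0.78 and 0.74 (exact permutation p = 0.262 and 0.284). The other 4 listed entries, miR-1b-3p, miR-133a-5p and the 2 hairpins of miR-1a, each had at most 14 reads in all. With mature miRNA totals, where 6.83% of all ncRNAs were called as higher, so were 3 of the 7 listed entries, the miR-206 hairpin (2.48) and the hairpins mmu-mir-133a-1 (1.65) and mmu-mir-133a-2 (1.62).

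The miRNAs that muscle shares with other tissues held no call in the direction of miR-206-3p. Of the 6 in the list, 0 were called as higher and 1 as lower, with a median log2 difference of -0.63, where 0.734% of mature miRNAs were called as higher and 5.51% as lower. The median was -0.25 for all mature miRNAs and -0.64 for the 219 mature miRNAs that averaged 10 normalized counts or more. With mature miRNA totals the median of the 6 was 0.26, against 0.00 and 0.20 for those sets of mature miRNAs, and 0 of the 6 were called in either direction, against 3.3% of mature miRNAs. The one called, miR-486a-5p, which red blood cells also carry in high amounts, had a log2 difference of -1.41 (SE 0.65, limma adjusted p = 0.829, exact permutation p = 0.0791). The others, miR-378a-3p, miR-22-3p, miR-23a-3p, miR-30c-5p and miR-29a-3p, had differences between -0.86 and -0.17.

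Markers of other cell types were lower or did not pass the test, where 2.13% of all ncRNAs and 5.51% of mature miRNAs were called as lower. Of the smooth muscle markers, 2 of 2 were called as lower, miR-143-3p at -1.15 (exact permutation p = 0.00730) and miR-145a-5p at -2.04 (exact permutation p = 0.0249), and their summed normalized count ran from 2091 to 15661 in PS19 and from 7806 to 30661 in WT. Of the red blood cell markers, 1 of 5 was called as lower (miR-486a-5p, above), with sums of 1952 to 44879 in PS19 and 17302 to 94866 in WT. Of the liver markers, 1 of 3 was called as lower, miR-122-5p at -1.57 (exact permutation p = 0.0805), with sums of 8502 to 211904 and 26564 to 386443. The 3 neuron, 2 endothelium and 1 myeloid and platelet markers had 0 calls. With mature miRNA totals none of the smooth muscle, red blood cell or liver markers was called, while miR-223-3p, of myeloid cells and platelets, was called as higher (1.58), as were 1.47% of mature miRNAs and 6.83% of all ncRNAs under that scaling. The ratio of miR-451a to miR-23a-3p, a usual index of red blood cell RNA in plasma, was 0.95 ± 1.21 for PS19 and 1.05 ± 0.996 for WT on the log2 scale (SD, n = 8 each; exact permutation p = 0.849). Without PS19 replicates 1 and 4, 1 of 2 smooth muscle markers and 1 of 3 neuron markers were called as lower, and 0 of the red blood cell and liver markers, where 1.85% of all ncRNAs and 2.96% of mature miRNAs were called as lower. The part of any of these markers in the result for miR-206-3p was not tested.

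By the share of mature miRNA reads, the 5 mature miRNAs most like miR-206-3p over the 16 libraries, among 215 candidates that averaged 10 normalized counts or more, were miR-223-5p (r = 0.66), miR-1839-5p (0.63), miR-3535 (0.60), miR-146a-5p (0.60) and miR-184-3p (0.56), where the median over the candidates was 0.05. Those most like miR-1a-3p were let-7d-5p (0.71), let-7a-5p (0.69), let-7f-5p (0.69), let-7c-5p (0.63) and miR-378c (0.61), with a median of 0.08. None of the 5 was shared. These values describe shares that have a library and its total in common, and they pool the genotypes. Within PS19 the r of the 5 nearest miR-206-3p ran from 0.50 to 0.80. Within WT it was 0.16 for miR-223-5p, -0.67 for miR-1839-5p, -0.01 for miR-3535, 0.25 for miR-146a-5p and 0.48 for miR-184-3p. The difference between the genotypes in these values was not tested. The log2 differences of normalized counts of the 5 nearest miR-206-3p ran from -0.88 to -0.19, below that of miR-206-3p itself.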

How the data were processed

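Small RNA of pEVs was measured in 16 libraries, 8 PS19 and 8 WT. The authors aligned the reads with STAR 2.5.3a, assigned them to ncRNAs with COMPSRA and deposited, as signal, counts divided by DESeq2 1.42.1 size factors (build mm10 per the submitters' processing notes). The deposited columns of the genotype comparison (log2 fold changes with standard errors, a Wald score, p-values) were made by the authors and were not used.

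Whole reads were recovered from the value of 1 read, with 100% of values whole within 1e-06. log2(normalized count + 1) was compared over all 15159 ncRNAs with limma 3.58.1 (lmFit, eBayes with trend, R 4.3.3). The cut-offs were a raw p of 0.05, the study's threshold, and Benjamini-Hochberg adjusted p-values. Two-sided exact permutation tests of 8 against 8 were also run (numpy 2.4.6), and exact binomial intervals were made with scipy 1.17.1. limma was used because the values are normalized, and edgeR 4.0.16 and DESeq2 1.42.0 were run on the reads as alternatives. DESeq2 was run with its default replacement of outlying counts, and which counts were replaced was not recorded. Correlations used 100000 resamples. The limma comparison was tested on simulated data.

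The rule for named miRNAs was the 7 members, the entries of the marker lists (those not called are mostly given as counts) and the 5 mature miRNAs most like each of the 2 most abundant members. The alternatives were other scalings, filters, a pseudocount of 0.1, 1 entry per identical set, a replicate block, the libraries named with G, and libraries left out. Members and lists were chosen with earlier results of these data known. Sequences and positions are from RefSeq (GRCm38.p6) and GENCODE. Of the ncRNAs, 4096 share all values with another entry.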

Additional observations from a re-analysis of the deposited data

How the results depend on the processing

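Of 317 alternative values, 266 kept their direction and side of the threshold, or stayed within 1.5 times for counts. The ncRNAs called, 735 (56.1% higher), became 440 (32.7% higher) with library totals, 1142 (90.6% higher) with mature miRNA totals, 230 when a mean of 10 normalized counts was required, 2295 with edgeR, 822 (70.7% higher) with DESeq2 and 644 (21.6% higher) in the libraries named with G. The muscle miRNAs called, 1, became 0 with library totals and 2 with mature miRNA totals, edgeR and DESeq2. miR-1a-3p, at -0.02, turned to 0.87 with mature miRNA totals, 0.74 without PS19 replicates 1 and 4, 0.29 with edgeR and 0.27 with DESeq2. miR-133a-3p, at 1.16, was 2.03 with mature miRNA totals and 1.82 with DESeq2, both past the threshold, and turned to -0.30 with edgeR and -0.64 in the libraries named with G. In those libraries miR-133b-3p was -0.84, miR-206-3p 1.03 and miR-499-5p -3.38. miR-206-3p was 1.52 with library totals, miR-499-5p -2.32 with edgeR, and miR-208a-3p 0.018 with mature miRNA totals. The DESeq2 values were made with its default replacement of outlying counts. The causes of these moves were not tested.

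Leaving out each library in turn gave 567 to 846 ncRNAs and 0 to 2 muscle miRNAs called, and log2 differences of -0.45 to 0.42 for miR-1a-3p, 0.77 to 1.83 for miR-133a-3p, 0.76 to 1.43 for miR-133b-3p, 1.32 to 2.46 for miR-206-3p, -0.59 to 0.27 for miR-208a-3p, -0.56 to 0.088 for miR-208b-3p and -1.59 to -0.47 for miR-499-5p. The log2 ratio of miR-206-3p to miR-1a-3p ran from 1.41 to 2.21, past the threshold without PS19 replicate 4 (2.17) or WT replicate 1 (2.18) or 2 (2.21). That of miR-1a-3p to miR-133a-3p ran from -1.47 to -0.86. That of miR-206-3p to miR-133a-3p ran from 0.00021 (without WT replicate 4) to 1.30 (without PS19 replicate 4). In the libraries named with G these last 2 ratios differed by -0.15 and 1.67. miR-208b-3p had no value with a filter at a mean normalized count of 1, nor miR-133b-3p, miR-208a-3p and miR-208b-3p with one at 10.

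Same-numbered libraries of the 2 genotypes are different mice, and their deviations correlated at -0.18 to 0.47, over 0.1 in 2 of 8 pairs, with 1 of 8 correlating best with its own number, so the samples share only a number. The replicate block gave 685 ncRNAs, 1.79 for miR-206-3p (limma raw p = 0.0275) and 1.81 for the ratio of miR-206-3p to miR-1a-3p (exact sign-flip permutation p = 0.0156), and moved no other call on the members.

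Few mature miRNA reads limit miR-133b-3p, miR-208a-3p, miR-208b-3p and miR-499-5p most. With at most 12 reads in a library, the values of miR-208a-3p and miR-208b-3p are fitted values and no measured fold change.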
